A study of Homo sapiens with 2 samples.

Results

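Complex I of the respiratory chain, as encoded in the nucleus, was followed in A549, a widely used cell line grown from a human lung adenocarcinoma and labelled epithelial. Its genes were taken as all symbols that start with NDUF, which cover subunits and assembly factors. Of 50 such symbols among the 36601 genes of the files, 3 antisense or divergent transcripts were left out (NDUFB2-AS1, NDUFV2-AS1 and NDUFA6-DT), and 47 protein-coding genes remained. They lie on 22 chromosomes.

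The study asks what a past period of confinement leaves behind in cells that lost a chromosome reporter. The squashed library came from A549 cells confined with micropillars of polydimethylsiloxane (PDMS), and the control library from A549 cells kept in 2D culture. In both groups live cells that no longer showed the reporter were sorted after 48 h of recovery, so both groups share the sort and the reporter loss. Each group is 1 library of 1 cell line, and both carry the same batch label.

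Complex I, NADH:ubiquinone oxidoreductase, takes electrons from NADH in the mitochondrial matrix, passes them along iron-sulfur clusters to ubiquinone and pumps protons across the inner membrane. An arm in the matrix holds the flavin and the iron-sulfur clusters, and an arm in the membrane holds the proton channels, whose core proteins are encoded by mitochondrial DNA. The other subunits are nuclear, and assembly factors join preformed modules into the whole enzyme. A549 is a dividing tumour line that respires and also ferments glucose.

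After filtering, 1930 squashed cells with 23328323 unique molecular identifiers (UMIs, each marking 1 captured RNA molecule) and 1906 control cells with 27482392 UMIs remained. The median depth was 9330.5 UMIs per squashed cell and 12458.5 UMIs per control cell, and the median number of genes detected was 1790 in squashed and 2598 in control cells. The median mitochondrial share was 7.10% in squashed and 5.77% in control cells, and the libraries shared 4 barcodes. The part of depth, gene number and mitochondrial share in the ratios below was not tested. Of the epithelial markers KRT8 and KRT18 were above 20 CPM (UMIs scaled to a library total of 1000000). KRT8 was at 1168 CPM in squashed and 796 CPM in control cells, and KRT18 at 557 CPM in squashed and 1691 CPM in control cells. KRT19 and CDH1 stayed under 10 CPM, and EPCAM was at 0 CPM in squashed and 0.18 CPM in control cells. Marker lists of other cell types summed to little in both libraries. The fibroblast list of 6 genes reached 6.39 CPM in squashed and 7.82 CPM in control cells, and the immune list of 5 genes 1.41 CPM in squashed and 2.07 CPM in control cells. The endothelial list of 4 genes reached 0.043 CPM in squashed and 0.073 CPM in control cells, and the alveolar type II list of 3 genes 0.21 CPM in squashed and 0.62 CPM in control cells, with CDH5, KDR and SFTPB at 0 in both.

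As a whole, nuclear complex I mRNA differed little between the libraries, while single members stood far apart in both directions. The 47 genes summed to 10074 CPM in squashed and 9395 CPM in control cells, a log2 ratio of squashed over control of 0.10 (95% interval 0.09 to 0.11). Intervals cover counting error only, and with 1 library per group no test between the conditions was possible. All ratios compare 2 libraries. In cells of at least 2000 UMIs and 1000 genes with at most 10% mitochondrial UMIs, a stricter cell filter, the summed ratio was 0.0072 (-0.0033 to 0.018). Per cell, the genes took a median of 1.03% of UMIs in squashed and 0.988% in control cells, with the middle 50% of cells from 0.893% to 1.18% in squashed and from 0.824% to 1.14% in control cells. More molecules of these genes per cell and fewer of all others cannot be told apart on this scale.

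Of the 47 members, 41 reached 20 CPM in at least 1 library and are called measured. The other 6 were NDUFA4L2 and the assembly factors NDUFAF1, NDUFAF5, NDUFAF6, NDUFAF7 and NDUFAF8. NDUFAB1 passed through the control library alone, and the other 40 passed in both. In the squashed library 6 measured members were at least 1.5-fold lower, where 12.4% of all 4307 measured genes were, and 3 were at least 1.5-fold higher, where 3.48% of all were. As shares of the 41 these are 14.6% and 7.32%. At least 2-fold lower were 4 members (5.11% of all genes) and at least 2-fold higher 2 (1.09% of all genes). Scaled by TMM, a factor that centres the bulk of genes, the split was 5 lower and 5 higher, where 8.52% of all measured genes were lower and 5.83% higher. The median log2 ratio of the measured members was 0.07 (-0.10 to 0.16) and that of all measured genes -0.14. TMM moved these to 0.22 and 0.03, so the members lay above all genes by 0.21 on the total scale and by 0.19 after TMM. With that stricter cell filter the members' median was -0.06 (-0.21 to 0.10) and that of all genes -0.12, a gap of 0.061. The plot of levels shows 46 of the members in both libraries.

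**Figure D1:**
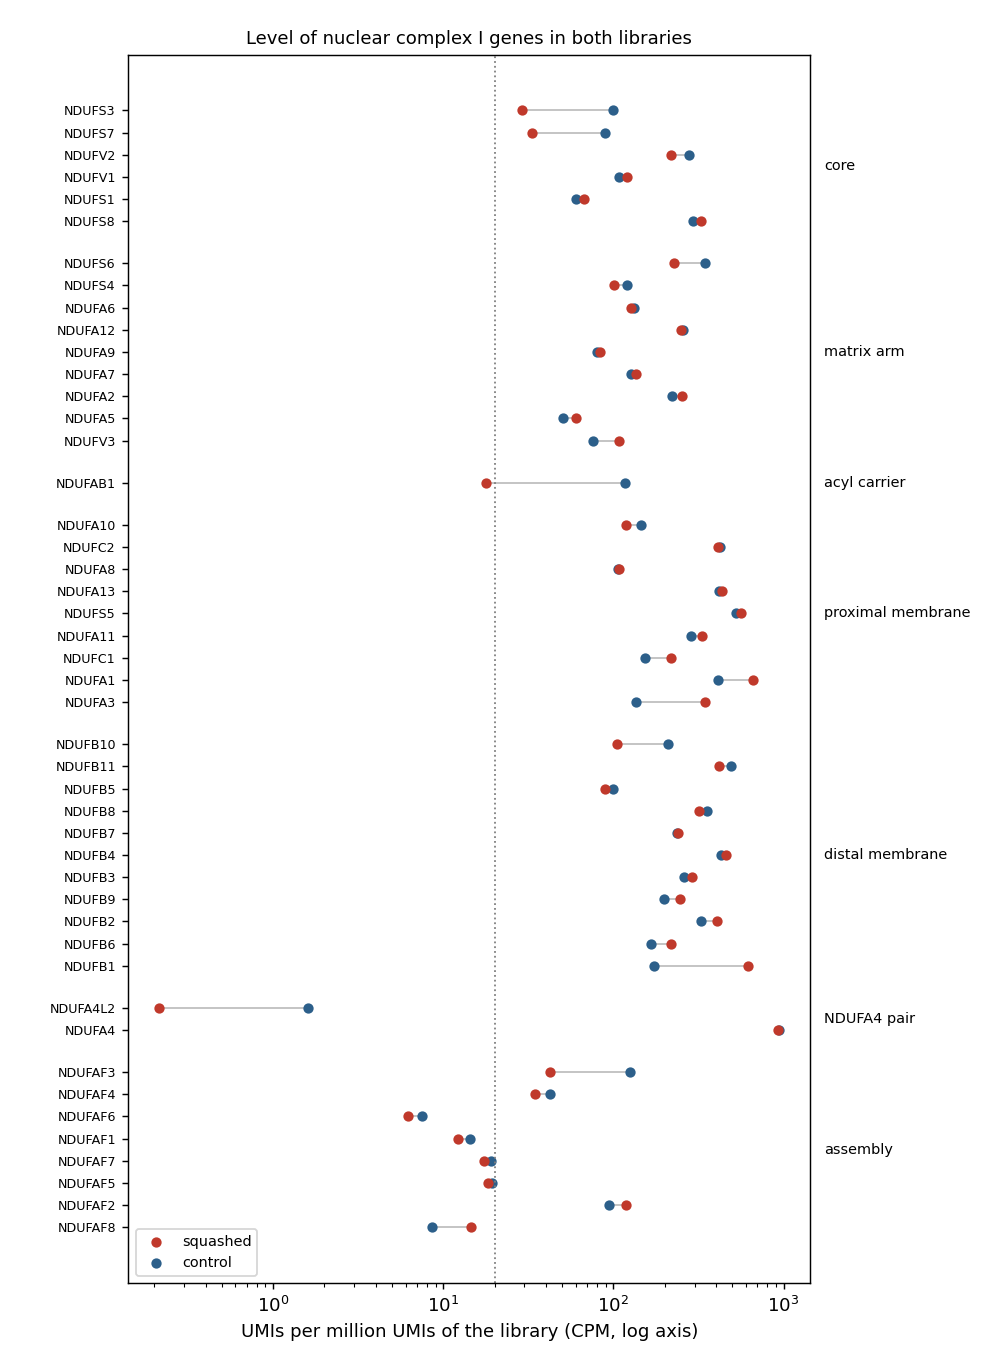
Level of 46 of the 47 nuclear complex I genes in the squashed (red) and the control (blue) library, in CPM on a log axis, grouped by role; the dotted line marks 20 CPM. Most pairs of points lie close together, while NDUFA4L2, at under 2 CPM in both libraries, NDUFAB1, NDUFS3, NDUFS7, NDUFAF3 and NDUFB10 lie to the left and NDUFB1, NDUFA3 and NDUFA1 to the right in the squashed library.

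The 7 core subunits, which are conserved from bacteria and carry out the electron transfer, were split. NDUFS3, a core subunit next to the ubiquinone site, had 680 UMIs or 29.1 CPM in squashed cells, against 2741 UMIs or 99.7 CPM in control cells. Its log2 ratio was -1.77 (-1.90 to -1.65), the 49th lowest of 4307 measured genes. NDUFS7, which holds the last iron-sulfur cluster before ubiquinone, had 33.1 CPM in squashed and 89.1 CPM in control cells, a log2 ratio of -1.43 (-1.55 to -1.31). The other core subunits were within 1.5-fold. NDUFS8, which carries a pair of iron-sulfur clusters, stood at 326 CPM in squashed and 292 CPM in control cells (0.16, 0.12 to 0.21). At the NADH end, NDUFV1, which binds the flavin, stood at 121 CPM in squashed and 108 CPM in control cells, a log2 ratio of 0.15. NDUFS1, the largest core subunit, stood at 67.3 CPM in squashed and 60.4 CPM in control cells, a log2 ratio of 0.16. NDUFV2 stood at 218 CPM in squashed and 277 CPM in control cells, a log2 ratio of -0.35 (-0.40 to -0.30). The 2 low core genes thus both encode proteins of the ubiquinone module, which NDUFS8, within 1.5-fold, is also part of.

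Accessory subunits of the matrix arm were close between the libraries, 8 of 9 within 1.5-fold, as were 3625 of all 4307 measured genes. The exception was NDUFS6, a zinc-binding subunit of the NADH end, with 226 CPM in squashed and 348 CPM in control cells, a log2 ratio of -0.62 (-0.67 to -0.57). It was just past the 1.5-fold mark, and its log2 ratio was -0.47 after TMM and -0.55 when mitochondrial and ribosomal protein genes were left out of the total. The highest of this group was NDUFV3, a small subunit of the NADH end, with 109 CPM in squashed and 76.2 CPM in control cells, a log2 ratio of 0.51 (0.43 to 0.59). The remaining 7 lay between -0.25 for NDUFS4 and 0.26 for NDUFA5. NDUFA5 was at -0.11 when each cell was thinned to 2000 UMIs.

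NDUFAB1 was the lowest measured member. It encodes the mitochondrial acyl carrier protein, which takes part in fatty acid synthesis and iron-sulfur cluster assembly and also sits in both arms of complex I. It had 417 UMIs or 17.9 CPM in squashed cells, against 3216 UMIs or 117 CPM in control cells. The log2 ratio was -2.71 (-2.86 to -2.56), a level 6.54-fold lower in squashed cells and the 6th lowest of all measured genes. The top 1% of cells by NDUFAB1 held 12.2% of its UMIs in the squashed and 6.93% in the control library, so the sums did not rest on a few cells. NDUFA6, a LYR-motif subunit that docks the acyl carrier in the matrix arm, stood at 127 CPM in squashed and 132 CPM in control cells (log2 ratio -0.05, -0.12 to 0.02). NDUFB9, the LYR-motif subunit of the membrane arm, stood at 245 CPM in squashed and 198 CPM in control cells (0.31, 0.26 to 0.36). Neither partner subunit was past 1.5-fold.

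Among the 9 accessory subunits of the proximal membrane arm, 2 were at least 1.5-fold higher in squashed cells and 0 were lower. Of all measured genes 3.48% were higher and 12.4% lower past that mark. NDUFA3, a small membrane subunit, had 8037 UMIs or 345 CPM in squashed cells, against 3751 UMIs or 136 CPM in control cells, a log2 ratio of 1.34 (1.28 to 1.39). NDUFA1, a single-span membrane subunit encoded on the X chromosome, had 657 CPM in squashed and 409.9 CPM in control cells, a log2 ratio of 0.68 (0.65 to 0.72). Just under the 1.5-fold mark, NDUFC1 stood at 219 CPM in squashed and 152 CPM in control cells, a log2 ratio of 0.52. It was past the mark after TMM, at 0.67. NDUFA13, also known as GRIM19, was at 437 CPM in squashed and 416 CPM in control cells (0.07, 0.03 to 0.11). The other 5 lay between -0.29 for NDUFA10 and 0.22 for NDUFA11.

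The distal membrane arm held the highest ratio and 1 low member. NDUFB1, one of the smallest subunits of the enzyme, had 14429 UMIs or 619 CPM in squashed cells, against 4748 UMIs or 173 CPM in control cells. Its log2 ratio was 1.84 (1.79 to 1.89), the 8th highest of all measured genes. NDUFB10, a subunit with disulfide bonds on the intermembrane side, had 105 CPM in squashed and 208 CPM in control cells, a log2 ratio of -0.99 (-1.06 to -0.92). The other 9 of the 11 were within 1.5-fold, from -0.23 for NDUFB11 to 0.40 for NDUFB6. NDUFB1 and NDUFB10 are both built into the same module of the membrane arm, and their ratios lay on opposite sides of those 9.

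**Figure D2:**
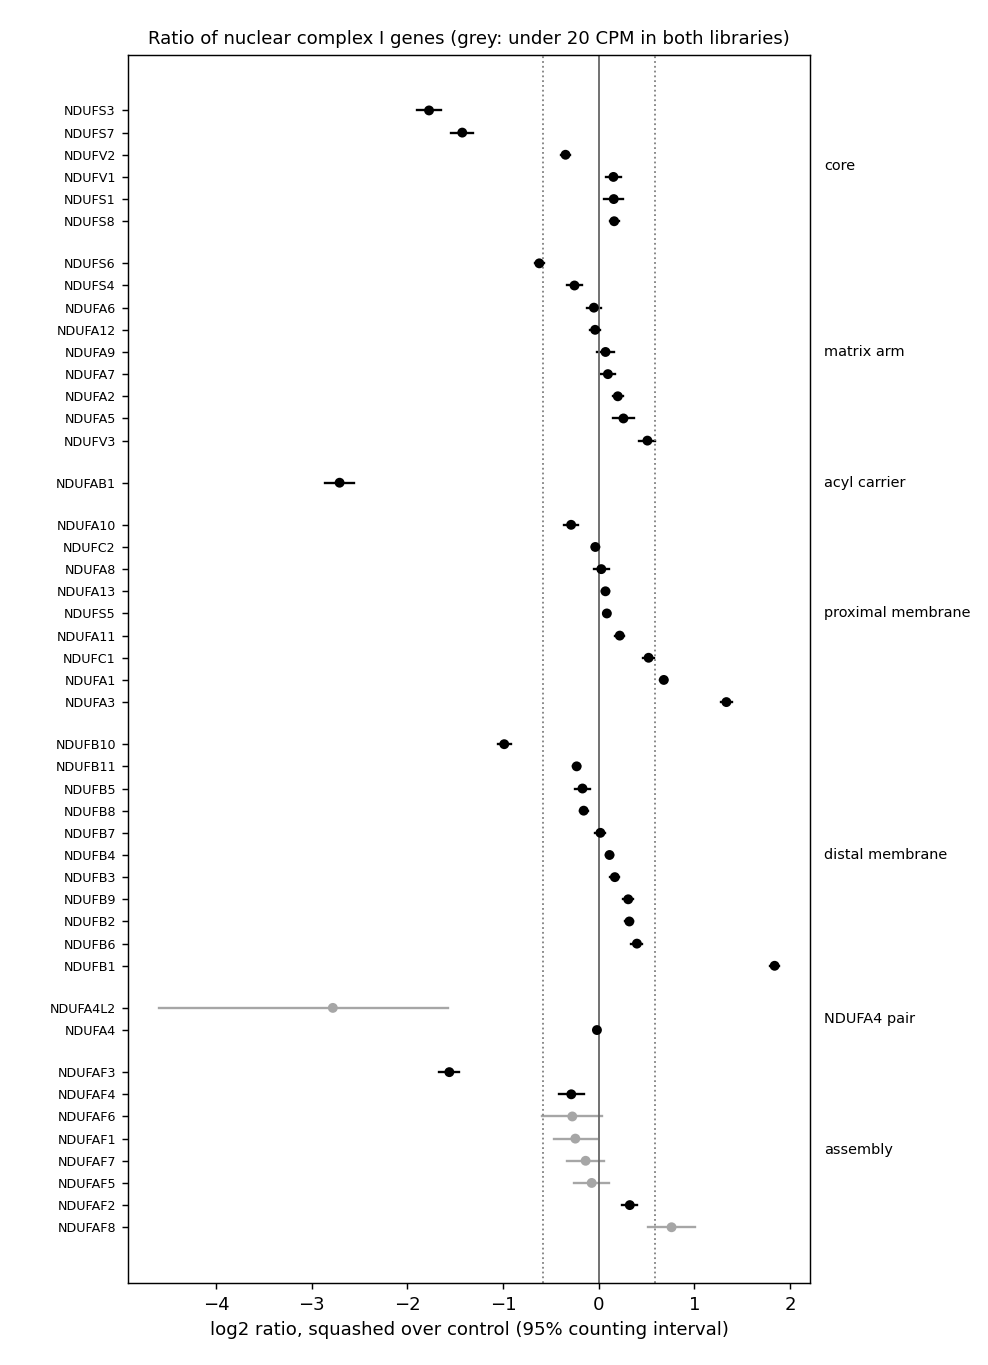
Log2 ratio of squashed over control for 46 of the 47 genes with its 95% counting interval, grouped by role; dotted lines mark 1.5-fold in either direction and grey points are members under 20 CPM in both libraries. Of the measured members 6 lie left of the lower mark and 3 right of the upper mark, with NDUFAB1 at -2.71 and NDUFB1 at 1.84.

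Assembly factors were mostly too scarce to be called measured. NDUFAF3, which acts early in building the ubiquinone module together with NDUFAF4, had 42.2 CPM in squashed and 125 CPM in control cells, a log2 ratio of -1.56 (-1.67 to -1.46). Its partner NDUFAF4 stood at 34.7 CPM in squashed and 42.4 CPM in control cells, a log2 ratio of -0.29 (-0.42 to -0.16), and at -0.73 in cells thinned to 2000 UMIs. NDUFAF2, a paralogue of NDUFA12 that holds its place during assembly, stood at 118 CPM in squashed and 94.2 CPM in control cells, a log2 ratio of 0.33 (0.25 to 0.40). NDUFA12 itself was at 249.9 CPM in squashed and 256 CPM in control cells (-0.04, -0.09 to 0.01). Of the factors under 20 CPM, NDUFAF8, the partner of NDUFAF5, had 340 UMIs in squashed and 236 UMIs in control cells, a log2 ratio of 0.76 (0.52 to 1.01). NDUFAF1, NDUFAF5, NDUFAF6 and NDUFAF7 lay between -0.28 and -0.07, and their intervals spanned 0 except that of NDUFAF1.

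NDUFA4, named with complex I but now assigned to cytochrome c oxidase, had 931 CPM in squashed and 943 CPM in control cells (log2 ratio -0.02, -0.04 to 0.01). Its paralogue NDUFA4L2, a hypoxia-induced gene in other cells, was nearly silent, with 5 UMIs in squashed and 44 UMIs in control cells. The log2 ratio of NDUFA4L2 was -2.78 with a wide interval of -4.59 to -1.57. Leaving this pair out, the summed log2 ratio of the other 45 genes was 0.11.

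The genes past 1.5-fold lie apart in the genome, though NDUFAB1 and NDUFB10, both lower, share chromosome 16 and are the only members on it. In GRCh38 coordinates of GENCODE 44, NDUFAB1 (ENSG00000004779) spans chromosome 16 from 23581014 to 23596316 on the minus strand, and NDUFB10 (ENSG00000140990) chromosome 16 from 1959538 to 1961975. NDUFS3 (ENSG00000213619) spans chromosome 11 from 47565336 to 47584562, NDUFAF3 (ENSG00000178057) chromosome 3 from 49020459 to 49023495 and NDUFS6 (ENSG00000145494) chromosome 5 from 1801407 to 1816048. On chromosome 19 lie NDUFS7 (ENSG00000115286) from 1383527 to 1395589 and NDUFA3 (ENSG00000170906) from 54102728 to 54109257, which had ratios of opposite sign. NDUFB1 (ENSG00000183648) spans chromosome 14 from 92116122 to 92121917 on the minus strand, and NDUFA1 (ENSG00000125356) chromosome X from 119871832 to 119876662. NDUFS3 overlaps PTPMT1 and KF459542.1 on the same strand, so that its counts are uncertain as far as reads were assigned to any of these genes. On the other strand NDUFS3 overlaps CELF1 and KBTBD4, NDUFAF3 overlaps DALRD3 and NDUFA3 overlaps TFPT. NDUFS7 overlaps AC005329.3 and AC005329.1 there. Whether the counting used strand is not stated in the labels. The read-through locus of NDUFC2 with KCTD14 is not among the genes of the files, so its reads may count for NDUFC2. Named pseudogenes exist for 21 of the 47 members, among them NDUFAB1, NDUFA3, NDUFB1, NDUFB10 and NDUFS6, and reads shared with such copies could be lost or split.

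The start regions of the members at both ends of the range are shown, NDUFAB1 and NDUFS3 as the lowest measured and NDUFA3 and NDUFB1 as the highest. They run from 250 bases before to 50 bases after the start of the RefSeq gene on GRCh38.p14, 5′ to 3′ on the strand of the gene. Capitals mark matches on either strand to 4 motifs of factors known at promoters of respiratory genes: TGCGCA (NRF1), CCGGAAG (ETS factors such as GABPA), AAGATGGC (YY1) and GGGCGG (SP1).
NDUFAB1, chr16:23596267-23596566, minus strand: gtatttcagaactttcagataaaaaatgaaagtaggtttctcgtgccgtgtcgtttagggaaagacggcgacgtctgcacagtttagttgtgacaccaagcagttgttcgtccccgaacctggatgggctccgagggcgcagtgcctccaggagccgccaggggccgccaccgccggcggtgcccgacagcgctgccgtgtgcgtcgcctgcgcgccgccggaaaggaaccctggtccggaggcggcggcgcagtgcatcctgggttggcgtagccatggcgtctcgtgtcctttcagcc
NDUFS3, chr11:47578824-47579123, plus strand: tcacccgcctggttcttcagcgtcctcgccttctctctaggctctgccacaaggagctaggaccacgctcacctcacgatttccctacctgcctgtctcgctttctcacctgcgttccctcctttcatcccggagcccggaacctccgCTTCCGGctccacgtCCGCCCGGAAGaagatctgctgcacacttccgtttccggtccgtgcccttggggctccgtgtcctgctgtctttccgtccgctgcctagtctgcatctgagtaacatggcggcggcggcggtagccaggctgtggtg
NDUFA3, chr19:54102605-54102904, plus strand: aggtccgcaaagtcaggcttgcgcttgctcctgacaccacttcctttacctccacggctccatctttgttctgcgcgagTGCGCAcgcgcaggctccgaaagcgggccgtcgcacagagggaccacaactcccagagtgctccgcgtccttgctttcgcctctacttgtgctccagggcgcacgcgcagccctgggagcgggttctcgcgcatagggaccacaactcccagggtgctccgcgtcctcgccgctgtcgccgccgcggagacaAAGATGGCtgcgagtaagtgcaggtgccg
NDUFB1, chr14:92121657-92121956, minus strand: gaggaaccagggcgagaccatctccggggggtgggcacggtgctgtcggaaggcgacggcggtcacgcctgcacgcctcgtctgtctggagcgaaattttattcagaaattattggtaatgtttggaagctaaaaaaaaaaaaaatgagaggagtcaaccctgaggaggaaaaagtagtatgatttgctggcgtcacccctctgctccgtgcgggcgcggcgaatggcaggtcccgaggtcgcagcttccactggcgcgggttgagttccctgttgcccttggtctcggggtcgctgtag

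The NDUFS3 region held 2 ETS matches and 1 SP1 match that overlaps an ETS match, and it lies within the span GENCODE gives the gene. The NDUFA3 region held 1 NRF1 match and, just after the start, 1 YY1 match. These letters were not in the windows of NDUFAB1 and NDUFB1. The NDUFA3 window also lies partly, and the NDUFB1 window mostly, within the span GENCODE gives the gene. That span begins at 54102728 for NDUFA3 and at 92121917 for NDUFB1, which is on the minus strand. Promoter windows were on hand for 39 of the 47 members. The YY1 letters were in 6 of these 39 windows (15.4%) and in 3.03% of all 27305 windows, and the NRF1 letters in 12 (30.8%) and in 8.42% of all. A longer NRF1 form, GCGCA followed directly by TGCGC, was in 3 member windows (7.69%) and in 1.36% of all. The ETS letters were in 15.4% of member windows and 10.7% of all, and the SP1 letters in 56.4% and 44.6%. Among the 9 members past 1.5-fold the YY1 letters were in 2 windows, the ETS letters in 2, the SP1 letters in 5 and the NRF1 letters in 3, with the longer form in 0. A match describes letters and shows no binding.

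The ratios of the 9 members past 1.5-fold kept their sign in all 6 classes of cells examined. These were cells called G1, S and G2/M and 3 classes of few, middling and many genes detected per 2000 UMIs. The 9 had been picked by their ratio over the kept cells. The phases and the classes of genes detected each divide the same cells, which are among the kept cells. A kept sign was therefore largely given beforehand. Of all 41 measured members 26 had 1 sign in the 6 classes, and how many of all measured genes did was not counted. NDUFAB1 ranged from -2.81 in cells called G2/M to -2.18 in cells called S, and NDUFB1 from 1.69 in G2/M to 2.07 in G1. NDUFS3 had the narrowest range of the 41, from -1.78 to -1.64. NDUFB10 ranged from -1.06 to -0.55. NDUFS6 differed with the cycle call, with -0.31 (-0.39 to -0.23) in G1 and -0.79 (-0.86 to -0.73) in G2/M. In cells called G1 it stood at 216 CPM in squashed and 269 CPM in control cells, and in cells called G2/M at 232 CPM in squashed and 402 CPM in control cells. NDUFA3 was highest in G1, where it reached 344 CPM in squashed and 112 CPM in control cells, a log2 ratio of 1.61 (1.52 to 1.71).

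**Figure D3:**
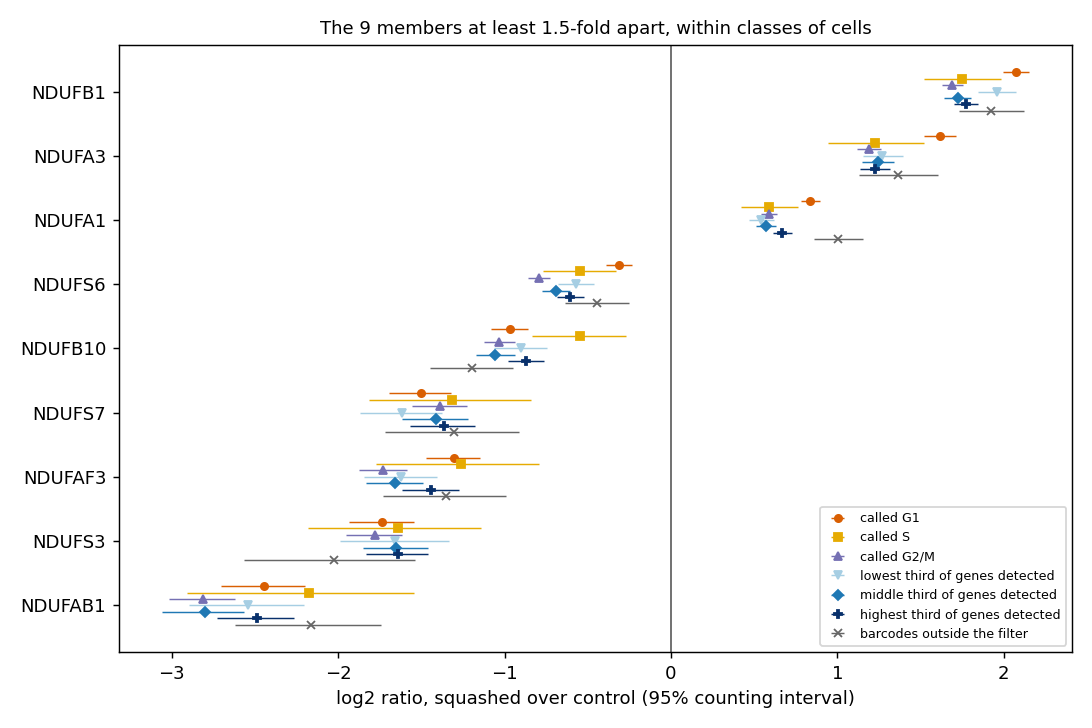
Log2 ratio of squashed over control with its 95% counting interval for the 9 members at least 1.5-fold apart, within cells called G1, S or G2/M, within 3 classes of genes detected per 2000 UMIs, and in barcodes outside the filter. Each gene keeps its side of 0 in every class, with NDUFAB1 between -2.81 and -2.16 and NDUFB1 between 1.69 and 2.07. The 9 were picked by their ratio over the kept cells, and the phases and the classes of genes detected divide the same cells.

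Summed complex I mRNA differed with the cycle call in control cells and less so in squashed cells. In cells called G1 the 47 genes summed to 9982 CPM in 832 squashed cells, against 8288 CPM in 663 control cells, a log2 ratio of 0.27 (0.26 to 0.28). In cells called G2/M they summed to 10179 CPM in 866 squashed cells, against 10198 CPM in 1107 control cells, a log2 ratio of -0.0027 (-0.014 to 0.0082). The 84 squashed and 55 control cells called S lay between, at 9639 CPM in squashed and 8886 CPM in control cells. Within the control library, 37 of 41 measured members were lower in G1 than in G2/M cells, with a median log2 ratio of -0.28, where 61.1% of all measured genes were lower with a median of -0.22. Within the squashed library, 26 of 41 were lower in G1, with a median of -0.05, where 71.3% of all measured genes were lower with a median of -0.34. The difference between the libraries in this contrast has no replicates and was not tested.

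Cells called G1 also differed between the libraries in other measures. Squashed G1 cells had a median of 9145.5 UMIs and of 642 genes per 2000 UMIs, against 14873 UMIs and 816 genes in control G1 cells. NEAT1 and MALAT1, non-coding RNAs of the nucleus, summed to 17218 CPM in squashed and 21847 CPM in control G1 cells. That order was reversed within each class of genes detected. G1 cells with few genes had 1108 CPM of the pair in squashed and 715 CPM in control cells. Those with middling numbers had 30208.5 CPM in squashed and 22285 CPM in control cells, and those with many 36625 CPM and 34294 CPM. The class of few genes held 569 squashed and 267 control G1 cells. The mitochondrial share was 10.2% in squashed and 11.7% in control G1 cells. The part of these measures was not tested. By classes of genes detected, G1 cells with few genes had 10486 CPM of complex I mRNA in squashed and 9324 CPM in control cells, those with middling numbers 9710 CPM in squashed and 8224 CPM in control cells, and those with many 9091 CPM in squashed and 7702 CPM in control cells. G2/M cells in the same order of classes had 11018.5, 10722 and 9512 CPM in squashed and 10399, 10969 and 9726 CPM in control cells. With mitochondrial and ribosomal protein genes left out of the total, G1 cells had 18131 CPM in squashed and 14402 CPM in control cells, and G2/M cells 16652 CPM in squashed and 16041 CPM in control cells. RNA free in the droplets was not measured and could enter the calls, which are not read as cycling. Nuclear genes of complexes III to V summed to 20299 CPM in squashed and 14661 CPM in control G1 cells, and mitochondrial ribosomal protein genes to 5311 CPM in squashed and 5662 CPM in control G1 cells.

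**Figure D4:**
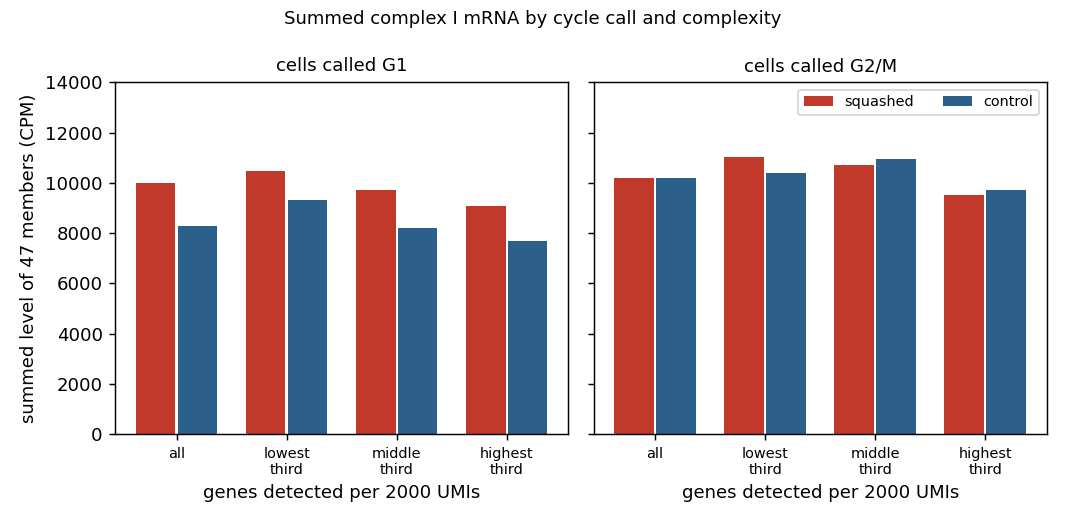
Summed level of the 47 nuclear complex I genes in CPM (bars from 0) in cells called G1 (left) and G2/M (right) of the squashed (red) and control (blue) library, for all cells and within 3 classes of genes detected per 2000 UMIs. The squashed bar is taller in every G1 pair, at 9982 CPM in squashed and 8288 CPM in control cells for all G1 cells, while all G2/M cells are nearly level, at 10179 CPM in squashed and 10198 CPM in control cells.

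The members at either end of the range also differed in coding length. All 3 of the higher members encode very small proteins, with coding lengths of 174 nt for NDUFB1, 210 nt for NDUFA1 and 252 nt for NDUFA3. The 6 lower members have coding lengths from 372 nt for NDUFS6 to 792 nt for NDUFS3. Over the 41 measured members the log2 ratio had a Spearman correlation of -0.45 with coding length (Pearson r of -0.30 on log10 lengths), where 4223 measured genes had -0.08 (Pearson r of -0.05). These genes share the libraries and are not independent. The 7 members of up to 300 nt had a median log2 ratio of 0.52, against 0.06 for 178 other genes of that length. At least 1.5-fold higher were 42.9% of these members and 19.1% of those other genes, where 3.48% of all measured genes were. The 13 members over 300 and up to 450 nt had a median of 0.09, against -0.08 for 342 other genes. The 13 members over 450 and up to 700 nt had a median of -0.23, against -0.14 for 678 other genes. For the 8 longer members the median was -0.02, against -0.15 for 2984 other genes. Length of the whole transcript and GC content ran less closely with the ratio, with Spearman correlations of -0.17 and -0.13 over the 41 members. The 5 members with transcripts of up to 500 nt, NDUFS5, NDUFB3, NDUFB2, NDUFA1 and NDUFB1, had ratios from 0.09 to 1.84 with a median of 0.32 and 2 at least 1.5-fold higher. The 55 other measured genes of that length had a median of 0.53 with 27 at least 1.5-fold higher. Whether length or composition takes part in the ratios was not tested.

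**Figure D5:**
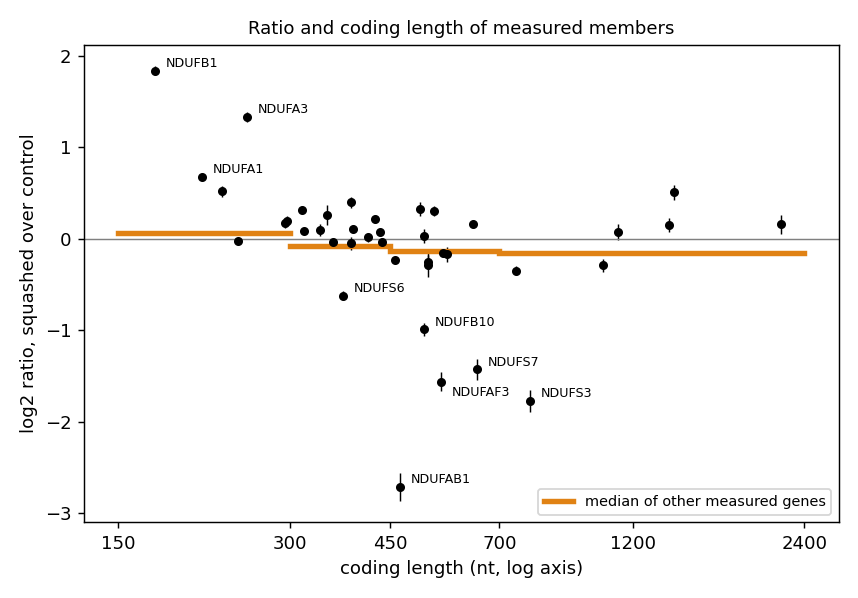
Log2 ratio of squashed over control with its 95% counting interval against coding length in nucleotides (log axis) for 40 of the 41 measured members; orange lines give the median of other measured genes in each length class. NDUFB1, NDUFA3 and NDUFA1 lie highest at the short end, and the 6 lower members have coding lengths of 372 to 792 nt.

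Among other genes of the pathway, the 7 mitochondrially encoded ND genes, which form the core of the membrane arm, were 1 lower and 3 higher past 1.5-fold. Of all measured genes 12.4% were lower and 3.48% higher past that mark. MT-ND1 was at 4679 CPM in squashed and 7195 CPM in control cells (log2 ratio -0.62), and MT-ND3 at 9374 CPM in squashed and 4649 CPM in control cells (1.01). MT-ND4L (1.25) and MT-ND6 (0.68) were also higher, and the 7 together had a log2 ratio of 0.04. Of 12 further complex I assembly factors 7 were measured and 0 of them were past 1.5-fold, with a median of -0.14 (COA1 at -0.41 lowest and DMAC1 at 0.40 highest).

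Genes that build iron-sulfur clusters were lower as far as any stood out. Of 16 listed genes 11 were measured, with a median of -0.39 (-1.23 to 0.01) beside -0.14 for all genes. Of the 11, 3 (27.3%) were at least 1.5-fold lower and 0 higher, where 12.4% of all measured genes were lower and 3.48% higher. ISCU, the scaffold on which clusters form, had 17.9 CPM in squashed and 55.1 CPM in control cells, a log2 ratio of -1.62 (-1.78 to -1.46). ISCA2, which acts late in the making of the larger clusters, had 20.6 CPM in squashed and 48.1 CPM in control cells (-1.23, -1.38 to -1.07). FDXR, the reductase that feeds electrons to the ferredoxins, had 40.0 CPM in squashed and 74.7 CPM in control cells (-0.90, -1.02 to -0.79). LYRM4, the LYR protein that joins the acyl carrier to the cysteine desulfurase, was at -0.42 and the desulfurase NFS1, at under 20 CPM, at -0.45. Of 10 genes of mitochondrial fatty acid synthesis and lipoylation, the other pathway of NDUFAB1, only AASDHPPT, which attaches the acyl carrier's cofactor, was measured, at 48.1 CPM in squashed and 50.1 CPM in control cells (-0.06).

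Complex II, the other entry for electrons to ubiquinone, had 6 of 8 genes measured, with SDHA, its flavin subunit, lower at 31.0 CPM in squashed and 58.2 CPM in control cells (log2 ratio -0.91, -1.04 to -0.78) and the other 5 within 1.5-fold. Of 8 regulators of mitochondrial biogenesis 2 were measured, TFAM, which packages mitochondrial DNA, at 0.37 and TFB2M at -0.28. Beside complex I, nuclear genes of complexes III to V had a median log2 ratio of 0.07. Past 1.5-fold, 1 of 36 measured genes was lower (2.78%) and 6 were higher (16.7%). They summed to 20454 CPM in squashed and 16587 CPM in control cells, a log2 ratio of 0.30, beside 0.10 for the complex I genes. Mitochondrial ribosomal protein genes had a median of -0.16 with 14 of 73 lower (19.2%) and 2 higher (2.74%). Of all measured genes 12.4% were lower and 3.48% higher. The differences between these lists were not tested.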

How the data were processed

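Single-cell RNA was measured in 1 squashed and 1 control library of A549 cells with a 10x Genomics Chromium 3.1 kit and a NovaSeq 6000. The deposited values are raw counts of UMIs per gene and barcode, per the file headers. The authors counted with Cell Ranger on GRCh38 (5.0.1 according to the design text in the labels, but 4.0.0 in the file headers). The submitters' processing notes also list R 4.3.2. How barcodes were called cells was not given in the sources used here.

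Kept were barcodes with 1000 or more UMIs, 500 or more genes and mitochondrial UMIs of 20% or less (61.6% of 3132 squashed and 74.0% of 2574 control barcodes). Scrublet in scanpy 1.11.5 marked 15 squashed and 16 control cells as doublets, which stayed in. UMIs were summed per library and scaled to CPM by the total; log2 ratios used a prior of 0.5 count, intervals are exact Clopper-Pearson and medians have order-statistic intervals. TMM factors came from edgeR 4.0.16 (R 4.3.3). Phases were called on 1782 squashed and 1825 control cells thinned to 2000 UMIs, and classes of genes detected were divided at 748 and 863 genes. Lengths, GC content and positions came from GENCODE 44, matched by identifier for all 47 members, and promoter windows from RefSeq. Computation used Python 3.11.15 with scipy 1.17.1, and the ratio step was tested on simulated data.

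The members and lists were chosen with earlier results of these data known. Full values are given for members past 1.5-fold, core subunits, NDUFA4, NDUFA4L2 and NDUFAF2. Measured genes past 1.5-fold are named for the ND, iron-sulfur cluster and complex II lists, MT-ND4L and MT-ND6 by ratio alone. Those of complexes III to V and of the mitochondrial ribosomal proteins are counted but not named. Further genes were named after their values were seen, and 1 member is counted in sums and counts but not reported by itself here. Coding length, the crossing of phase with genes detected and the motifs were also chosen after the data had been seen.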

Additional observations from a re-analysis of the deposited data

Results flagged for a closer look

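Among the measured members, 5 had counting intervals on opposite sides of 0 in cells called G1 and in cells called G2/M. That is what drew attention to them, and the difference between the phases was not tested. The median log2 ratio of members measured in each class was 0.24 in G1 and -0.03 in G2/M cells, beside -0.23 and -0.05 for all genes. How many of all genes had intervals on opposite sides of 0 was not counted. NDUFA6 had a log2 ratio of squashed over control of 0.38 in G1 and -0.20 in G2/M cells. NDUFC2 was at 0.25 in G1 and -0.21 in G2/M, and NDUFA4 at 0.18 in G1 and -0.17 in G2/M. Reads of a read-through locus with KCTD14 may be counted in NDUFC2. NDUFS5 was at 0.30 in G1 and -0.06 in G2/M (-0.0553 with an interval of -0.102 to -0.0089). NDUFA12 was at 0.20 in G1 and -0.087 in G2/M. NDUFA6 stood at 106 CPM in squashed and 81.4 CPM in control cells called G1, and at 146 CPM in squashed and 168 CPM in control cells called G2/M. In all 5 the ratio over all cells lay within 0.1 of 0 on the log2 scale.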

How the results depend on the processing

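No paired analysis was possible because each group holds 1 library, and for the same reason no library could be left out. The median log2 ratio of measured members was 0.22 after TMM and between -0.06 and 0.09 under the other alternatives. It lay above that of all genes by 0.061 with the stricter cell filter, the smallest gap of these settings, and by 0.27 in thinned cells, the largest. Past 1.5-fold, 5 members were higher after TMM and 5 when mitochondrial and ribosomal protein genes were left out of the total, against 3 as reported; of all genes 5.83% and 4.001% were higher in these settings. The lower members numbered 5 to 7 in every alternative run, where 8.52% (TMM) to 17.2% (thinned cells, with 7 lower members) of all genes were lower. The summed log2 ratio of 0.10 was 0.25 after TMM and 0.17 without mitochondrial and ribosomal protein genes in the total. It was 0.0072 with the stricter cell filter, 0.081 with no cell filter and 0.080 in thinned cells. All of the 9 members past 1.5-fold kept their direction in all 6 alternatives run for single genes. Of them 8 stayed past 1.5-fold after TMM, NDUFS6 being the exception. TMM and the other total shift the log2 ratios of all genes alike, and the remaining alternatives count largely the same cells. For members picked by their ratio, a kept direction was therefore largely given beforehand. Of 246 values of single members under alternatives, 133 lay within the counting interval of the reported ratio and 113 outside it; the cause was not tested. Counting error sets the limit for members under 20 CPM, such as NDUFA4L2 with 5 UMIs in squashed cells.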

Other observations

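Barcodes outside the cell filter, 1202 squashed and 668 control barcodes, held 3500977 UMIs in the squashed and 3082974 UMIs in the control library. In them the 47 genes summed to 5299 CPM in squashed and 4825 CPM in control barcodes, a log2 ratio of 0.14 (0.10 to 0.17). The members at the ends of the range lay on the same side of 0 as in the kept cells. NDUFAB1 had 16.0 CPM in squashed and 72.0 CPM in control barcodes (-2.16, -2.62 to -1.74), and NDUFS3 had 12.0 CPM in squashed and 49.3 CPM in control barcodes (-2.03, -2.57 to -1.54). NDUFB1 had 328 CPM in squashed and 86.3 CPM in control barcodes (1.92, 1.73 to 2.12), and NDUFA3 had 169 CPM in squashed and 65.5 CPM in control barcodes (1.36, 1.13 to 1.60).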
